A study of Rattus norvegicus with 4 samples.

Results

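Alpl and Spp1, genes often read in cholestasis, were followed here, through the 3 probes of the array that a platform annotation table names for them, out of 1936 probes in all. Alpl encodes tissue-nonspecific alkaline phosphatase and had 2 probes, numbered 83 and 792. Spp1 encodes osteopontin and had 1 probe, numbered 1000. Male Sprague-Dawley rats of 250 to 300 g had the common bile duct ligated, or had a sham operation that exposed the duct without tying it, and the liver was sampled 12 h later. Both operations were done under ether, and both groups ate and drank freely afterwards. Liver RNA was pooled from 3 rats per group, and each of 4 two-colour cDNA arrays carried both pools, so the arrays measure 1 pair of pools and every p-value below covers the spread between arrays, not between animals.

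Alkaline phosphatase removes phosphate groups from small molecules and proteins at the outer face of the cell. It is held in the hepatocyte membrane by a lipid (GPI) anchor, and its rise in serum is a classical laboratory sign of blocked bile flow. Osteopontin is a secreted, acidic, integrin-binding phosphoprotein. In normal liver it is made mainly by the cells that line bile ducts, and in injured liver also by macrophages, stellate cells and hepatocytes.

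The deposited value of a probe is a log ratio, whose base and direction are not stated. It was read as log2 of ligated over sham on every array. That direction is likely, because the labels put the ligation RNA in channel 2 each time, but arrays of opposite dye correlated at r from -0.45 to -0.28 across the 1936 probes, and arrays of the same dye at 0.93 and 0.94. The dye of the ligation RNA was Cy5 for arrays 1 and 3 (the Cy5 arrays) and Cy3 for the other two (the Cy3 arrays). Each gene therefore has 2 estimates, the mean log ratio (ligated over sham) and a dye term, 0.5 times the difference between its means on the Cy5 and the Cy3 arrays. If the table in fact held Cy5 over Cy3, the dye term would be the ligation effect. Levels cannot be read from these ratios, so neither the amount of either transcript nor the presence of a cell type's markers could be checked. In whole liver, a change in the number of cells of a type and a change in RNA per cell cannot be told apart.

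Read this way, Alpl was higher in the ligated pool, 1.68-fold (log2 0.75 ± 0.07, SE, 4 arrays), and above the array median on 4 of 4 arrays. Spp1 did not pass the test, at log2 0.14 ± 0.07 (SE, 4 arrays), and its sign followed the dye, below the array median on both Cy5 arrays and above it on both Cy3 arrays. Read as Cy5 over Cy3, the pair would change places: Alpl would not pass, at 0.10 (0.099), and Spp1 would be lower, at -0.41. Alpl was thus the 1 of the 2 genes called higher at limma's adjusted p under 0.05, against 11.7% of all 958 named genes called higher, 15.4% called lower and 27.1% called in either direction.

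The stretch of genome before an annotated start of each gene is shown as background. Whether the liver transcripts measured here begin at that start was not tested. The sequences are RefSeq's for assembly GRCr8, 250 bases ending at the base before the start that its promoter table uses, 5′ to 3′ on the minus strand, with capitals marking matches on either strand to GGGCGG (the GC box) or TATAAA (the TATA box).
Alpl, chr5:155289786-155290035: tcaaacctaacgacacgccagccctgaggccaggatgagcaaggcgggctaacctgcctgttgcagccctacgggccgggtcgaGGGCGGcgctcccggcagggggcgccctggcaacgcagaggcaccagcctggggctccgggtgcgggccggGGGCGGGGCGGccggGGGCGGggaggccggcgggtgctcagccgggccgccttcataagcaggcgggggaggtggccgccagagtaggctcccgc
Spp1, chr14:5619805-5620054: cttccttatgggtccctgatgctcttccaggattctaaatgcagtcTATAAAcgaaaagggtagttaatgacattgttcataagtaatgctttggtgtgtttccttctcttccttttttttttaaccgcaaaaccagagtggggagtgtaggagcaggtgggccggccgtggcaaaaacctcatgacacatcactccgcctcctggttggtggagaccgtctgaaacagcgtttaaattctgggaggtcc
The Alpl stretch is 76% G or C, higher than 97.1% of the 33469 rat promoters in that table, and holds 4 matches to GGGCGG, of which 2 share a base, against 30.5% of promoters with at least 1. The Spp1 stretch is 46.8% G or C and holds no GGGCGG. It has 1 TATAAA, found in 12.9% of promoters, but 198 bases separate it from the start. Neither stretch matched TGANTCA, the site of AP-1 factors (6.34% of promoters). These are letter matches only, and the arrays say nothing of what binds there.

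For Alpl, the log2 ratios centred on the array median, with both probes averaged, were 0.78 and 0.91 on the Cy5 arrays (1 and 3) and 0.66 and 0.64 on the Cy3 arrays (2 and 4). All 4 arrays gave a higher ratio than the median probe, and the Cy5 pair lay above the Cy3 pair. The mean was 0.75, with an SD of 0.13 between arrays and a 95% confidence interval from 0.59 to 0.90, or 1.5-fold to 1.87-fold (limma adjusted p = 6.09e-06). Alpl ranked 8 from the top among 958 named genes under this reading and 480 under the Cy5 over Cy3 reading. The dye term was 0.10 (0.099) ± 0.07 (SE) and did not pass (adjusted p = 0.226). The call was lost in a fit without a dye term, which left the value at 0.75 but widened its SE to 0.16 (adjusted p = 0.253). That fit called 0 genes higher and 0 lower, and Alpl's unadjusted limma p in it was 0.0033.

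The 2 Alpl probes did not give the same size of change. Probe 83 read 0.37 and 0.65 on the Cy5 arrays and 0.65 and 0.61 on the Cy3 arrays, with a mean of 0.57 ± 0.08 (SE, limma adjusted p = 0.000104). Probe 792 read 1.19 and 1.17 on the Cy5 arrays and 0.66 and 0.67 on the Cy3 arrays, with a mean of 0.92 ± 0.08 (adjusted p = 6.49e-07). Both probes were called higher when each was fitted alone, against 11.7% of the 1432 probes of a single named gene. On the Cy3 arrays the probes lay within 0.0036 and 0.063 of each other, whereas on the Cy5 arrays probe 792 was above probe 83 by 0.82 and 0.52. Probe 792 thus carried a dye term of its own, 0.26 ± 0.08 (adjusted p = 0.0071), while that of probe 83 was -0.061 ± 0.08 (adjusted p = 0.499).

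For Spp1, the centred log2 ratios were -0.36 and -0.18 on the Cy5 arrays and 0.58 and 0.50 on the Cy3 arrays. The dye orientations did not overlap, with means of -0.27 and 0.54, and the SD over the 4 arrays was 0.48. Arrays of the same orientation differed by much less. The mean of 0.14 had a 95% confidence interval from -0.024 to 0.30, from 0.984-fold to 1.23-fold (limma adjusted p = 0.212). In this fit an increase beyond 1.23-fold thus lay outside the interval and a smaller one did not. The bounds moved with the processing. Without a dye term the interval ran from -0.42 to 0.69. It lay above 0 with quantile normalization (0.0072 to 0.31) and with centring within each print block of the slide (0.0057 to 0.31), where Spp1 was still not called. In the fit centred on the array median, the dye term was -0.41 ± 0.07 (SE, adjusted p = 0.000239, interval from -0.57 to -0.25). Under the Cy5 over Cy3 reading this is Spp1 at 1.33-fold lower, with the same sign on 4 of 4 arrays; 78% of named genes were called under that reading, 45.2% of all as higher and 32.8% as lower.

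**Figure D1:**
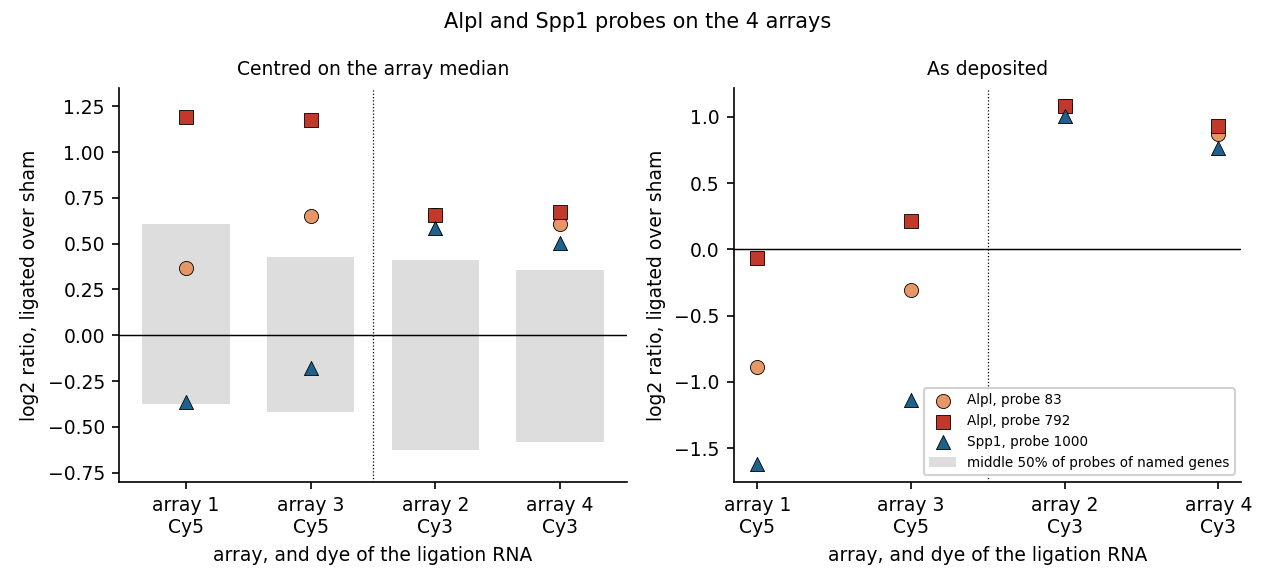
Log2 ratio of ligated over sham (y axis) for the 3 probes on each array (x axis, with the dye of the ligation RNA), after centring on the array median (left) and as deposited (right); grey bars span the middle 50% of the probes of named genes. After centring, all Alpl points are above 0, from 0.37 to 1.19, while Spp1 is at -0.36 and -0.18 on the Cy5 arrays and at 0.58 and 0.50 on the Cy3 arrays.

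The deposited columns had medians of -1.26, 0.43, -0.96 and 0.26 for arrays 1 to 4, and the uncentred values of the pair follow that alternation. Probe 83 was deposited as -0.89, 1.08, -0.31 and 0.87, probe 792 as -0.066, 1.08, 0.22 and 0.93, and Spp1 as -1.62, 1.01, -1.14 and 0.76. Probe 792 is the only one of the 3 to hold a positive deposited value on a Cy5 array. Leaving out the centring moved the median of all named genes from -0.013 to -0.39. Without it, Alpl stayed called higher at 0.36 ± 0.10 (0.0985) (limma adjusted p = 0.0057), through probe 792 (0.54, adjusted p = 0.00115), since probe 83 did not pass alone (0.19, adjusted p = 0.14). Spp1 turned to -0.25 and was called lower (adjusted p = 0.0438), in a fit that called 83.7% of named genes, 82.6% lower and 1.15% higher.

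The place of a probe within its own array depends neither on centring the array as a whole nor on the base of the logarithm. It does depend on the direction of the ratio. Read as ligated over sham, among the 1432 probes of named genes, probe 792 exceeded 95.5%, 92.3%, 98.7% and 94.5% on arrays 1 to 4. Probe 83 exceeded 64.7%, 92.0%, 86.7% and 91.3%, lowest on array 1. Spp1 exceeded 26.1% and 38.7% on the Cy5 arrays and 86.9% and 83.9% on the Cy3 arrays. Both Alpl probes were then in the upper part of each array, and Spp1 was in the lower part of the Cy5 arrays and the upper part of the Cy3 arrays. Read as Cy5 over Cy3, the places on arrays 2 and 4 became 7.61% and 5.45% for probe 792, 7.96% and 8.66% for probe 83, and 13.1% and 16.0% for Spp1. Spp1 was then in the lower part of each array, and the Alpl probes were low on the Cy3 arrays alone.

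The difference between the genes on the same array is also free of the zero point of the whole array. It is not free of a zero point set per print block, since the probes lie in blocks 1, 7 and 9. Alpl minus Spp1 was 1.14 and 1.09 on the Cy5 arrays but 0.072 and 0.14 on the Cy3 arrays, so Alpl was above Spp1 on 4 of 4 arrays. The mean was 0.61 with an SD of 0.59, and in the exact two-sided sign-flip permutation test over arrays 2 of 16 sign patterns reached it, the fewest possible, so 4 arrays cannot reach a p under 0.05. Centred within each print block of the slide, the mean was 0.53 and the exact permutation p was 0.5. Differences of the same sign on all 4 arrays could not give that p, so the sign was then not shared by all arrays. Read as Cy5 over Cy3, the difference was 0.51, with both signs among the arrays and an exact permutation p of 0.5.

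The genes with patterns closest to Alpl, by Euclidean distance over the 4 centred ratios, were Nfkb2, an NF-kappa-B subunit (distance 0.31), the transcription factor Myc (0.42), the retinaldehyde dehydrogenase Aldh1a1 (0.50), the annexin A2 partner S100a10 (0.53) and the MAP kinase phosphatase Dusp5 (0.60). Their ratios were 0.83, 0.56, 0.56, 0.57 and 0.51, and without centring 0.45, 0.18, 0.18, 0.19 and 0.13. The genes closest to Spp1 were the TNF receptor adaptor Tradd (distance 0.11), the kinase Map3k6 (0.12), the endothelial cadherin Cdh5 (0.15), the adenosine receptor Adora2b (0.17) and the organic anion transporter Slc22a6 (0.17). Their ratios ran from 0.093 to 0.19 and their dye terms from -0.47 to -0.35. These values follow from the choice of genes by the same 4 ratios, so they are a description and no test of likeness. Every gene in this paragraph shares the 4 arrays and their dyes with the gene it resembles. Over the 958 named genes, 298 (31.1%) had Spp1's combination of no ligation call and a dye term called lower, and 27 (2.82%) had Alpl's, called higher with a dye term that did not pass.

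The spread of ligation ratios was not the same along the dye term, a comparison chosen after the data were seen. Among 133 named genes whose dye term lay within 0.1 of that of Spp1, ligation ratios ran from -0.12 at percentile 5 to 0.13 at percentile 95, and 5 were called, 2 higher and 3 lower. Spp1, at 0.14, was matched or exceeded by 7 of them. Among 120 genes as near to Alpl's dye term, those percentiles were -0.41 and 0.35, 18 were called higher and 18 lower, and 1 gene reached Alpl's value. Signal intensities were not analysed here, so whether brightness accompanies this difference in spread was not tested.

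**Figure D2:**
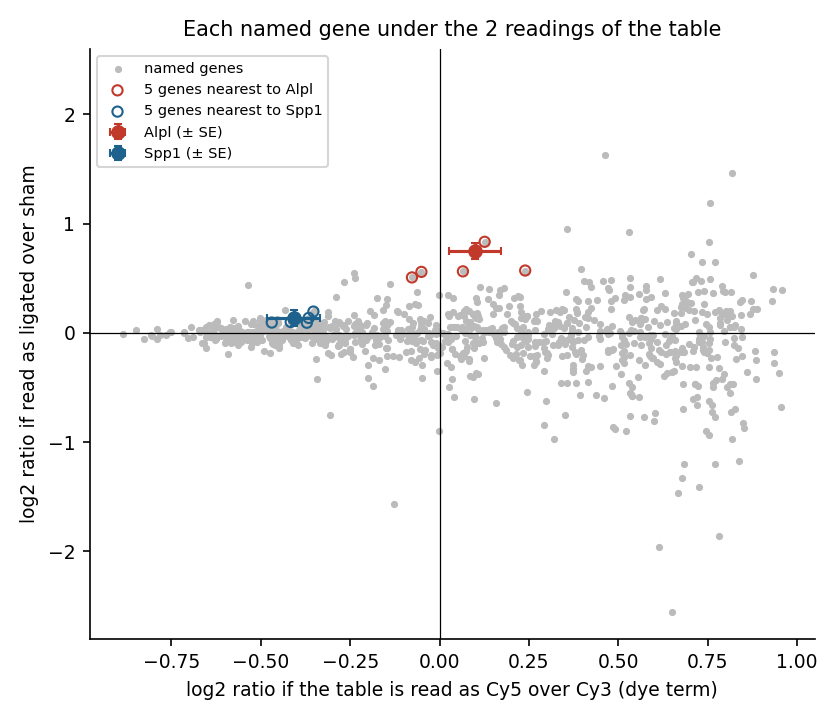
Each of the 958 named genes by its log2 ratio if the table is read as Cy5 over Cy3 (x axis, the dye term) and as ligated over sham (y axis); open circles are the 5 nearest genes of each member, and bars on Alpl and Spp1 are SE. Alpl lies near 0 on the x axis and at 0.75 on the y axis, Spp1 at -0.41 and 0.14 in the narrow left part of the cloud.

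Among enzymes that appear in serum or bile in cholestasis, 2 of 4 measured genes were higher, Alpl and the canalicular peptidase Dpp4 (0.30 ± 0.07, with a dye term of 0.44). Without centring Dpp4 was at -0.082 and not called. Without array 4 it was at 0.28 and lost its call. The fits without array 2 or array 4 gave every gene named in the text the same SE, 0.115. Calls lost in those fits therefore do not measure a gene's own spread. The other two, named to complete the list, were the gamma-glutamyl transferase Ggt1 (0.016 ± 0.07) and the aspartate transaminase Got1 (-0.064 ± 0.16). The list's median was 0.16, against -0.013 over all named genes, of which 11.7% were called higher and 15.4% lower. Under the other reading, 1 was higher (Dpp4) and 1 lower (Ggt1), with a median of 0.23, against 45.2% of all named genes higher and 32.8% lower. Of 7 genes for GPI-anchored proteins, Alpl was the 1 that passed, and the median was -0.026. Under the Cy5 over Cy3 reading Alpl did not pass, 5 others were lower, and the median was -0.27. Pdxk, the kinase that activates vitamin B6, whose phosphate ester alkaline phosphatase splits, was the 1 measured gene of 17 listed for cofactors, substrates and phosphate handling. It was lower at -0.24 ± 0.07 (limma adjusted p = 0.0241), a call lost with print-block centring (adjusted p = 0.0603) and without array 1 (adjusted p = 0.0745), array 2 (0.159) or array 4 (0.105).

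Among partners of osteopontin, 0 of 2 measured receptor subunits passed limma's adjusted p or an unadjusted p of 0.05, the integrin beta chains Itgb1 (-0.018 ± 0.07) and Itgb5 (0.013 ± 0.08, named to complete the list). Itgb1 had a dye term of -0.81, against -0.41 for Spp1, so under the other reading 1 receptor subunit was lower and 1, Itgb5, higher (0.50). Of 6 enzymes and inhibitors that act on osteopontin or its cleavage, the metalloproteinase inhibitor Timp1 was higher (0.35 ± 0.08, limma adjusted p = 0.00473, and -0.034 without centring) and 5 did not pass, with a list median of -0.012. Under the other reading 1 was higher and 1 lower, with a median of -0.038 and Timp1 at -0.00049. Of 5 mineral-binding and matricellular proteins, Spp1 included, vitronectin (Vtn, another integrin ligand made by hepatocytes) was lower at -0.47 ± 0.09 and 4 did not pass, with a median of -0.035. Under the other reading 3 of the 5 were higher, Vtn (0.82) among them, Spp1 was the 1 lower gene, and the median was 0.41. Over all named genes 11.7% were higher and 15.4% lower as ligated over sham, and 45.2% and 32.8% under the other reading.

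Spp1 was one of 4 measured genes of 17 listed as markers of bile duct cells, and 0 of the 4 passed limma's adjusted p, nor an unadjusted p of 0.05. Over all 958 named genes 27.1% were called, 11.7% higher and 15.4% lower. The other bile duct markers, named to complete the list, were Cd24 (-0.049), the water channel Aqp1 (-0.022) and Ggt1, and the list's median was -0.003. With the table taken as Cy5 over Cy3 all 4 passed, 3 lower (Spp1, Cd24 at -0.51 and Ggt1 at -0.57) and 1 higher (Aqp1 at 0.59), with a median of -0.46. Under that reading 78% of all named genes were called, 45.2% higher and 32.8% lower. Without centring all 4 were called lower, as were 82.6% of all named genes. Of 7 hepatocyte markers 5 were higher (median 0.26), led by Apoa1 (0.38), Tf (0.37), Fgg (0.33) and Ttr (0.26), none of which stayed called without centring (-0.0039, -0.014, -0.049 and -0.13). The sign of these 4 followed the dye, above the array median on both Cy5 arrays and below it on both Cy3 arrays. Their dye terms, 0.80, 0.63, 0.53 and 0.69, were larger than their ligation values. The remaining hepatocyte markers, named to complete the list, did not share this pattern throughout. Serpina1 was called higher (0.20, with probes at 0.032 and 0.38, limma adjusted p = 0.0484) with a dye term of the other sign, -0.19. Apob (0.098) and Pck1 (-0.22) did not pass. Fgg and Ttr lost their calls without array 1 or array 4 (limma adjusted p from 0.0841 to 0.143), and Ttr also without array 2 (0.089) and with print-block centring (0.121). Of 2 leukocyte genes, Cd53 was lower (-0.27, median -0.10). Of 4 stellate cell genes, Timp1 was higher and Col1a1 lower (-0.23, with probes at -0.42 and -0.051), and the list's median was 0.032. Of 4 endothelial genes, Ece1 (-1.18) and Kdr (-0.33) were lower (median -0.18). Cd53 and Col1a1 lost their calls without array 2, 3 or 4 (limma adjusted p from 0.0726 to 0.177), and Kdr without array 1 or 2 (0.149 and 0.242). In the fits without array 2 or array 4 these genes shared 1 SE, 0.115, so losses there do not measure a gene's own spread. Of blood cell markers 1 was measured, the platelet factor Pf4, which did not pass (-0.022). Under the Cy5 over Cy3 reading, 5 hepatocyte markers were higher and 1 lower, 1 leukocyte, 1 stellate cell and 1 endothelial gene were higher, and 1, 1 and 2 were lower, and Pf4 was lower. The part of these shifts in the values of Alpl and Spp1 was not tested.

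All 8 measured genes of the bile acid response list passed, 6 lower and 2 higher, with a median of -0.65, against 27.1% of all named genes called. Cyp8b1 (-1.56, with probes at -3.04 and -0.089), Cyp7a1 (-0.90) and Cyp27a1 (-0.66), enzymes of bile acid synthesis, and the bile acid uptake carrier Slc10a1 (-0.76) led the list. Under the Cy5 over Cy3 reading 5 of the 8 were higher and 0 lower, with a median of 0.49, against 45.2% of all named genes higher and 32.8% lower. There limma's dye term put Cyp27a1 at 0.72 and Slc10a1 at 0.53, called higher, and Cyp8b1 at -0.13 and Cyp7a1 at -0.00036, not called. Of 10 early response and inflammatory regulators, 5 were higher and 1 lower, with a median of 0.24 (4 higher, 2 lower and 0.11 under the other reading). Nfkb2 and Myc, the nearest genes to Alpl, and Egr1 (0.44, with the dye term -0.54) were among the higher ones, and the cytokine Tnf (-0.57) was the lower one. Of the 5 higher ones, 1 (Nfkb2) stayed called higher without centring, where Myc was at 0.18 and Egr1 at 0.056. Across the 60 measured genes of all lists, 15 were called higher and 13 lower, which became 24 and 18 under the Cy5 over Cy3 reading and 3 and 43 without centring. Over all 958 named genes, 11.7% were called higher and 15.4% lower. These shares became 45.2% and 32.8% under the Cy5 over Cy3 reading, and 1.15% and 82.6% without centring.

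**Figure D3:**
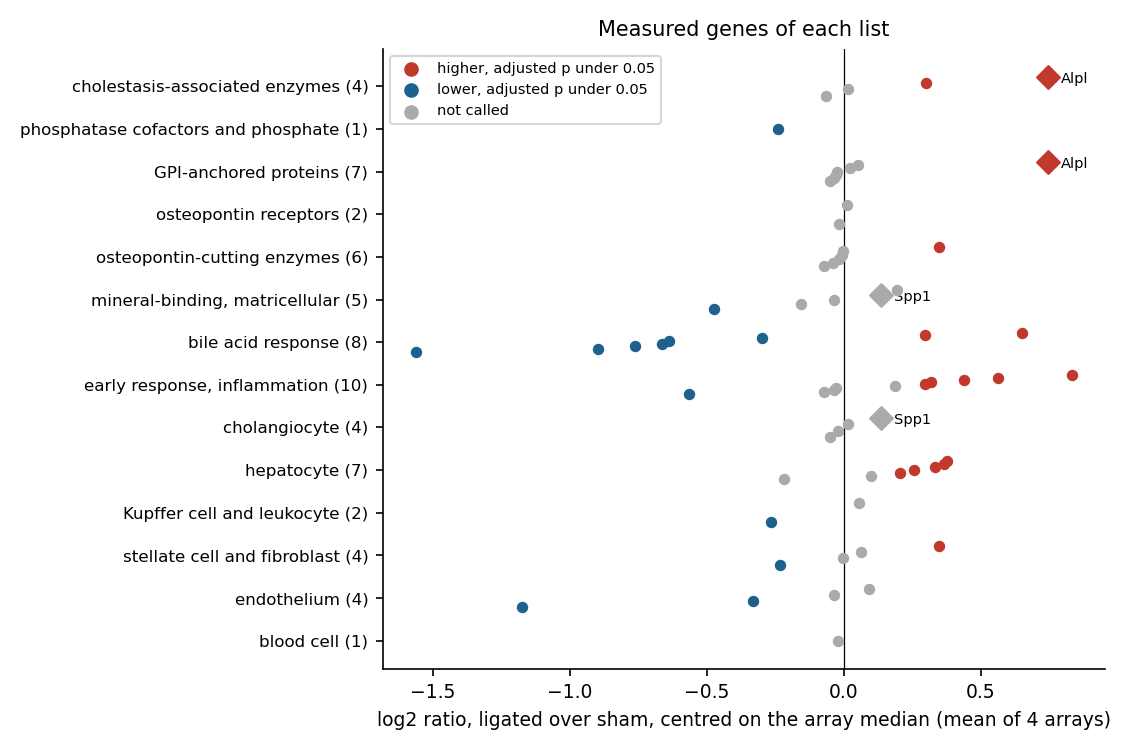
Log2 ratio of ligated over sham, centred and averaged over 4 arrays (x axis), for every measured gene of each list (rows, number measured in parentheses); red and blue mark genes called higher or lower and grey those that did not pass, with Alpl and Spp1 as diamonds. Alpl is the highest of the 4 cholestasis-associated enzymes, at 0.75, and the 4 cholangiocyte markers lie between -0.049 and 0.14.

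**Figure D4:**
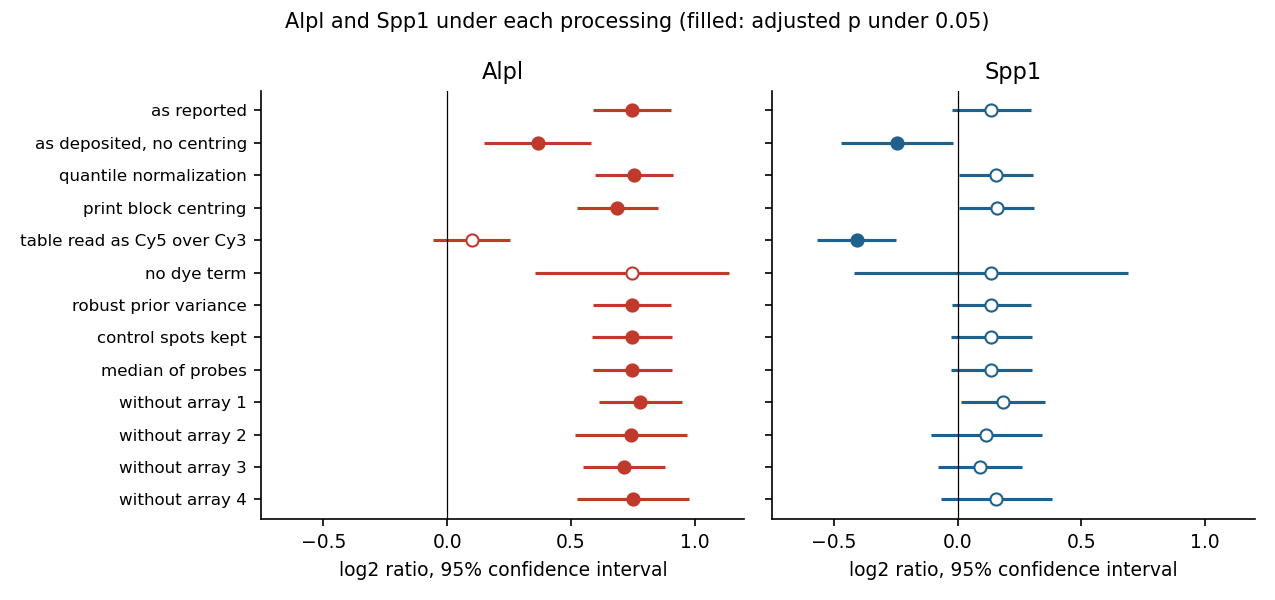
Ligation effect of Alpl and of Spp1 (x axis, log2 ratio with its 95% confidence interval) under each processing (rows); filled points passed limma's adjusted p of 0.05. Alpl passed in all but the Cy5 over Cy3 reading (0.099) and the fit without a dye term (0.75), and Spp1 passed, as lower, in the Cy5 over Cy3 reading (-0.41) and without centring (-0.25).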

How the data were processed

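The authors deposited 1 log ratio, taken here as log2, per probe and array for 1936 probes; per the labels, RNA was pooled, labelled with Cy3 or Cy5 and hybridised. How the slides were scanned, corrected and normalized, and the logarithm's base, are each not given in the sources used here, so base 2 is a reading, and other bases would rescale every log2 value and leave the calls as they are. Of the probes, 1432 had 1 gene symbol, 19 several and 485 none in the platform table; 1429 symbols matched RefSeq (GRCr8) by gene number. The 288 spots at 18 positions unnamed in all 16 print blocks were taken as controls and left out.

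Arrays were centred on their medians and probes of a symbol averaged, giving 958 genes and 216 other probes. limma 3.58.1 (R 4.3.3) fitted a ligation term and a dye term (1 or -1), with moderated variances (eBayes); calls used a Benjamini-Hochberg adjusted p under 0.05 over 1174 features; the fit was tested on simulated data. Fits with each array left out, other centring, no dye term, a robust prior, control spots kept, and the Cy5 over Cy3 reading were also run. Named genes were Alpl and Spp1, the 5 nearest genes to each, and up to 4 called members of each list, with a few more named to complete a list. The members and lists were chosen with earlier results of these data known. Precision between arrays is limited by their number, and with 1 pair of pools the spread between animals cannot be estimated.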

Additional observations from a re-analysis of the deposited data

Results flagged for a closer look

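Of 36 values examined over the 4 arrays, 1 had an array far from the other three by Dixon's criterion, where chance marks about 5% of groups. Alpl probe 83 read 0.37 on array 1 against 0.61 to 0.65 on the other arrays, with a ratio of gap to range of 0.839. Without array 1 the probe's mean was 0.64 (0.57 with it) and it was called higher in both cases.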

How the results depend on the processing

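Quantile normalization, print-block centring, a robust prior, kept control spots and the median of probes left Alpl called higher and Spp1 not called. With each array left out, Alpl ranged from 0.71 to 0.78, Spp1 from 0.091 to 0.18, their difference from 0.43 to 0.79, the genes called higher from 74 to 117 (74 without array 4) and those called lower from 103 to 151. Without a dye term Alpl stayed at 0.75 but was not called, and limma called 0 genes higher and 0 lower, with 17 and 35 at an unadjusted p under 0.05. Without centring Spp1 was at -0.25, 11 genes were called higher and 791 lower, and 3 and 43 of the list genes. Read as Cy5 over Cy3, Alpl was at 0.099 and probe 83 at -0.061, Spp1 was at -0.41, 433 genes were called higher and 314 lower, and 24 list genes higher. The shifts without centring follow from how the zero point is set, and those read as Cy5 over Cy3 from the direction. No source used here states either.

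Other named genes changed sign. Without centring these were Dpp4 (-0.082), Timp1 (-0.034), Apoa1 (-0.0039), Tf (-0.014), Fgg (-0.049), Ttr (-0.13), Tradd (-0.24), Map3k6 (-0.28), Cdh5 (-0.29), Adora2b (-0.19) and Slc22a6 (-0.29). Read as Cy5 over Cy3 they were Timp1 (-0.00049), Vtn (0.82), Slc10a1 (0.53), Cyp27a1 (0.72), Tnf (0.44), Egr1 (-0.54), Cd53 (0.27), Ece1 (0.84), Aldh1a1 (-0.051), Dusp5 (-0.077), Tradd (-0.37), Map3k6 (-0.42), Cdh5 (-0.37), Adora2b (-0.35) and Slc22a6 (-0.47). Of the genes named to complete a list, Ggt1 (-0.37), Itgb5 (-0.37), Serpina1 (-0.18) and Apob (-0.28) changed sign without centring. Ggt1 (-0.57), Got1 (0.36), Aqp1 (0.59) and Serpina1 (-0.19) did so when read as Cy5 over Cy3. Itgb1 was at 0.018 with print-block centring and between -0.037 and 0.00053 with an array left out (the latter without array 4), and Pf4 between -0.099 and 0.054 (the latter without array 3). The settings for named genes beyond these first 2 were chosen after seeing the data. Each log ratio already pairs both pools within an array, so no further block was fitted. Signal over background was not analysed here.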
